A study of Mus musculus with 8 samples.

Results

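The Rab genes encode small GTPases of the Ras superfamily, each of which marks a particular membrane of the cell. Protein-coding genes named Rab followed by a number, with or without a letter, were taken from the count table. Of 59 such genes, 4 (Rab11a, Rab11b, Rab25 and Rab8a) were left out, and 48 of the other 55 had at least 10 counts in at least 4 of the 8 libraries. These 48 Rab genes, out of 48440 genes in the table, are described here.

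The RNA came from whole livers of newborn mice of the CD1 strain, aged 3 to 8 days. The 4 knockout pups carried a deletion of Myo5b in the germline, so in every cell of the body, and the 4 controls were heterozygous or wildtype littermates. The sources used here do not say which control pup had which of these genotypes, and give no age, sex or litter for a single pup. Each library came from its own pup and is named by its number, knockouts 275 to 278 and controls 279 to 282.

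A Rab protein cycles between a GDP-bound form, kept soluble by the chaperone GDI, and a GTP-bound form on a membrane. Exchange factors (GEFs) load it with GTP, GTPase-activating proteins (GAPs) switch it off, and the loaded form recruits effectors such as tethers, sorting proteins and motors. In hepatocytes Rab proteins direct the release of plasma proteins and lipoproteins, the uptake of ligands from blood and the delivery of transporters to the bile canaliculus. Myo5b encodes an actin motor that binds Rab proteins of recycling endosomes. Reads measure RNA, and the amount, GTP loading and location of the Rab proteins were not measured.

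Library totals ran from 14228268 to 18398039 counts. Levels are read counts normalised to library size (CPM), with library sizes scaled by the TMM method, given as mean ± SD with n = 4 per group, and differences are log2 fold changes of knockout over control from edgeR's quasi-likelihood test. A gene was called changed at a Benjamini-Hochberg adjusted p under 0.05 over all 18274 genes tested. Myo5b RNA was lower in the knockouts, at 49.3 ± 7.06 CPM against 133 ± 33.1 CPM, a log2 fold change of -1.43 (SE 0.18, adjusted p = 3.14e-04), with no overlap between the groups. Hepatocyte markers summed to 82200 to 95018 CPM in the knockouts and 104678 to 132503 CPM in the controls, the highest sums of the 12 marker lists examined. Of the 7 measured, 2 fell (Alb and Ttr), 1 rose (Ahsg) and 4 were not called, and the median log2 fold change was 0.023. Without Alb, the most abundant, the sums overlapped, at 54950.4 to 59006 CPM in the knockouts and 47512 to 58484 CPM in the controls.

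Some of the other marker lists differed between the groups, and in whole tissue fewer cells of a type and less RNA per cell cannot be told apart. All 11 erythroid markers that were measured fell, their sum running from 463 to 973 CPM in the knockouts and from 1944 to 2737 CPM in the controls. All 10 cell cycle genes fell too, from sums of 2095 to 2701 CPM in the controls to 809 to 1177 CPM in the knockouts. Of 12 Kupffer cell and macrophage markers 11 rose, with sums of 1647 to 1917 CPM against 923 to 1060 CPM, and of 8 sinusoidal endothelium markers 6 rose, with sums of 1070 to 1273 CPM against 826 to 888 CPM. Of 8 megakaryocyte and platelet markers 4 fell, with sums of 69.6 to 109 CPM against 108 to 154 CPM. Of 8 T and NK cell markers 2 rose, all 8 had positive log2 fold changes (median 1.04), and the sums were 34.3 to 48.5 CPM against 14.87 to 20.97 CPM. Of 8 stellate cell and fibroblast markers 3 rose and 2 fell, with sums of 1507 to 1614 CPM against 1699.9 to 2160.2 CPM. Of 9 neutrophil and granulocyte markers tested 2 fell, and of 9 B lineage markers 1 rose and 3 fell. Sums of these lists overlapped, at 594 to 950 CPM against 779 to 1000 CPM and 31.4 to 48.4 CPM against 30.2 to 44.7 CPM. Of 2 mast cell and basophil markers tested 1 rose, and none of 6 cholangiocyte markers was called. Over all genes tested 20.7% were called, and of the T and NK cell list 25.0%. No marker was at 0 in every library. The part of these cell types in the Rab values was not tested.

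Of the Rab genes tested, 6 passed the threshold and 41 did not. Rab3b, Rab43 and Rab39 rose, and Rab38, Rab4a and Rab8b fell. Of the 47 Rab genes that passed edgeR's filter on low counts, 12.8% were called, against 20.7% of all genes tested. Those called higher were 3 of 47, against 9.27% of all genes, and those called lower were 3 of 47, against 11.4%. All 4 knockout values lay on the same side of all 4 control values for 7 of the 47 (14.9%), the 6 called genes and Rab35, against 23.6% of all genes. The median log2 fold change of the 47 was 0.066 (all genes, 0.0093), and the median of its absolute size was 0.21 (all genes, 0.28).

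The 95% intervals give the range of change each gene's data allow. For 23 of the 47 the interval lay within 1.5-fold in both directions (48.9%, against 38.0% of all genes), and for 38 it lay within 2-fold (80.9%, against 63.9%). The 9 whose intervals reached past 2-fold were the called genes Rab3b, Rab38 and Rab39 together with Rab3d, Rab4b, Rab19, Rab26, Rab37 and Rab44. Of 21 members with a mean level of at least 20 CPM, 2 were called (Rab8b and Rab43) and 17 had intervals within 1.5-fold. Of 26 tested members under 20 CPM, 4 were called. The share of all genes called at these levels is not given here, so the split by level is not a result about the Rab family alone. The summed level of the 48 genes was 1398 ± 19.5 CPM in the knockouts and 1359 ± 33.8 CPM in the controls. Its range was 1371 to 1414 CPM in the knockouts and 1324 to 1396 CPM in the controls, which overlap.

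**Figure D1:**
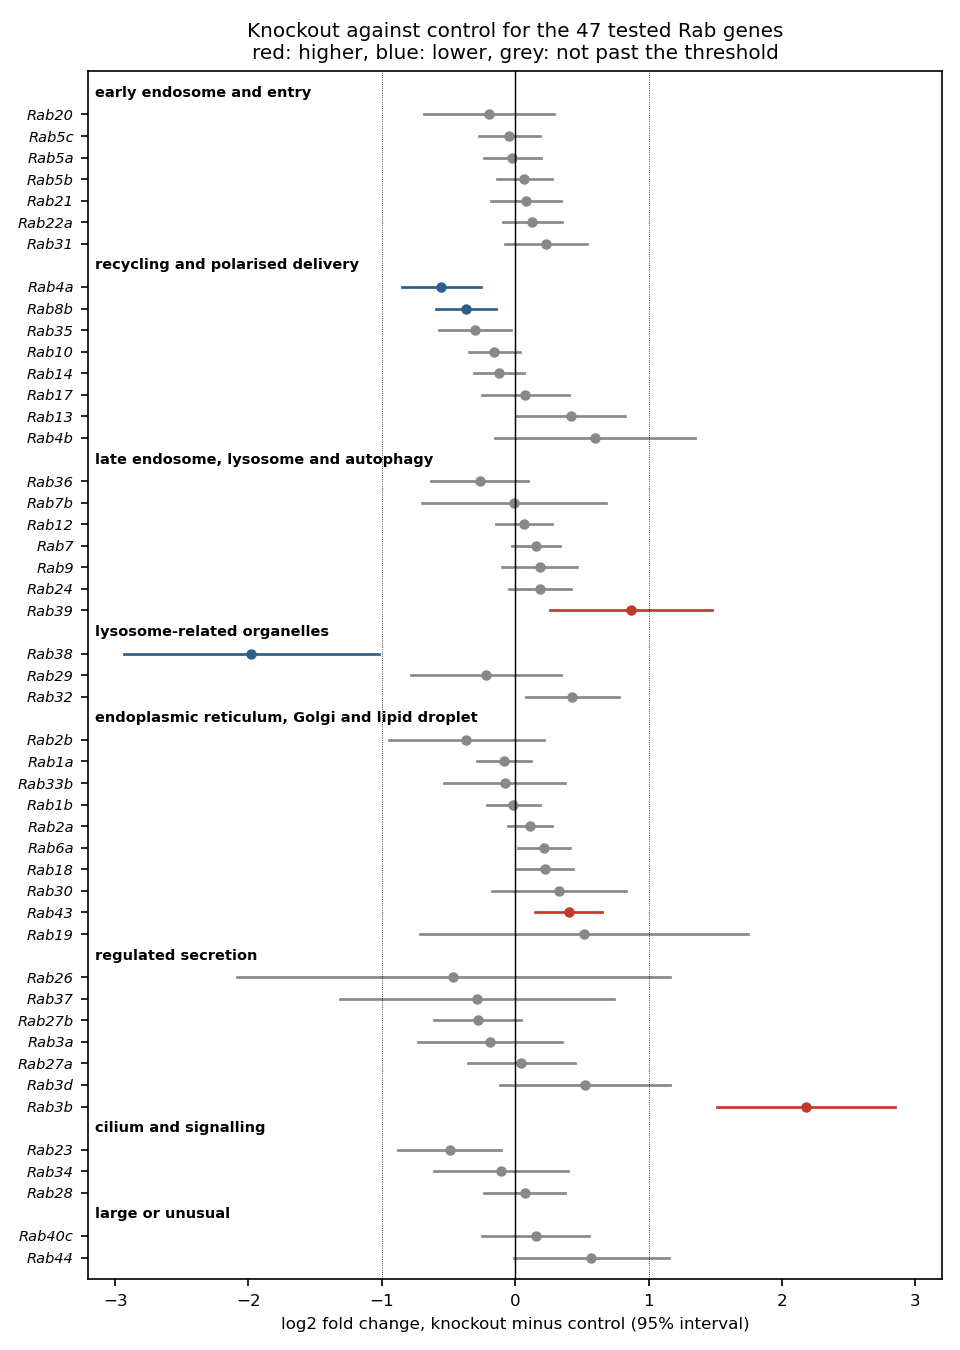
Log2 fold change of knockout over control for the 47 tested Rab genes with 95% intervals, ordered by role, from 4 knockout and 4 control libraries. Rab3b lies farthest to the right at 2.18 and Rab38 farthest to the left at -1.98, and the other points lie between -0.55 and 0.87.

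Rab3b had the largest rise of the family. It belongs to the Rab3 group, which sits on secretory vesicles and acts in regulated secretion, and lies at chr4:108879063-108943324, plus strand, ENSMUSG00000003411 (GRCm38). Rab39, which also rose, encodes a Rab of late endosomes and lysosomes and lies at chr9:53684110-53706232, minus strand, ENSMUSG00000055069. The 250 bases before the RefSeq start of both genes are printed because each of these 2 raised genes has a single start in the RefSeq table (GRCm38.p6), whereas Rab43, the third, has several. They are written 5′ to 3′ on the gene's strand, with capitals marking matches on either strand to the GC box GGGCGG, the CCAAT box CCAAT, the TATA box TATAAA or the E-box CACGTG. The Rab3b window spans chr4:108878820-108879069 (plus strand) and the Rab39 window chr9:53706233-53706482 (minus strand), and the last bases of the former lie inside the first GENCODE exon.
Rab3b: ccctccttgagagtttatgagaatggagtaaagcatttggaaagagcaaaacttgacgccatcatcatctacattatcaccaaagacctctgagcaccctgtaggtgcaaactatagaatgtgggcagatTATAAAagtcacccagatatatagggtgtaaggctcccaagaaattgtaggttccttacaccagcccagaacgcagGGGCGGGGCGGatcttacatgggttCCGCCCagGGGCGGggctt
Rab39: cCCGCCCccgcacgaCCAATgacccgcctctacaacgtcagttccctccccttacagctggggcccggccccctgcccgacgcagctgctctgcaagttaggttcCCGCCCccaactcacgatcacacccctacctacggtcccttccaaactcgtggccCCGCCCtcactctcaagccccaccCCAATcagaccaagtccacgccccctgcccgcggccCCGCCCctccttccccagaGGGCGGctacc

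The window of Rab3b has a GC content of 48.8% with 4 GC box matches, all in its last part and a pair of them sharing a base, and 1 TATA box match. That of Rab39 has a GC content of 68.8% with 5 GC box and 2 CCAAT matches and no TATA match. Of the 48 Rab genes, 37 matched the RefSeq promoter table, with 49 windows. A GC box was present in 69.4% of these windows, against 32.7% of all 32817 windows of the same length. The CCAAT box was in 36.7% against 33.8%, the TATA box in 4.08% against 12.4%, and the E-box in 10.2% against 6.02%. The windows of all genes were not limited to protein-coding genes or by count, as the Rab genes were. These shares are therefore not a result about the Rab family alone. A match describes the letters and is not a measured binding site.

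The role groups hold from 2 to 10 Rab genes each, too few to set their counts against the 20.7% of all genes called. Among the 7 Rab genes of regulated secretion, 1 rose and 6 were not called. Rab3b was read at 9.11, 10.4, 14.7 and 8.92 CPM in knockouts 275, 276, 277 and 278 and at 1.23, 1.74, 2.37 and 4.21 CPM in controls 279, 280, 281 and 282. Every knockout library was above every control library, and control 282 was the highest of the controls. It rose 4.53-fold, a log2 fold change of 2.18 (SE 0.31, adjusted p = 1.48e-04). An antisense gene, 8030443G20Rik, overlaps an exon of Rab3b and had 0 to 3 counts per library, whereas Rab3b had at least 19. Rab3b passed the test in each of the 8 fits that left out 1 library.

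Its close relatives in the Rab3 group, Rab3d of exocrine and other secretory granules and Rab3a of synaptic and endocrine vesicles, were not called. Rab3d was read at 52.1, 46.3, 35.4 and 20.5 CPM in knockouts 275, 276, 277 and 278 and at 23.1, 33.7, 23.7 and 26.8 CPM in controls 279, 280, 281 and 282, so knockout 278 was the lowest of all 8 libraries and the other 3 knockouts were above every control. Its log2 fold change was 0.52 (SE 0.28, adjusted p = 0.240), and without knockout 278 it was 0.73 (adjusted p = 0.0022). Per kilobase of exon, Rab3b made up 22.4% ± 5.84 of the summed Rab3a, Rab3b and Rab3d level in the knockouts and 7.40% ± 3.84 in the controls, with ranges of 15.8% to 27.7% and 4.35% to 12.6%. The share of Rab3b is made from the same Rab3b values and is not separate evidence of its rise. Rab3d was the most abundant of the 3 per length in all 8 libraries.

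Rab27a, which docks lysosome-related and secretory vesicles at the plasma membrane, was read at 19.8, 14.6, 13.2 and 22.2 CPM in knockouts 275, 276, 277 and 278 and at 17.5, 13.2, 21.97 and 14.7 CPM in controls 279, 280, 281 and 282. The groups overlapped, and its log2 fold change was 0.047 with a 95% interval of -0.36 to 0.45. Rab27b, its paralog, was at 12.1 ± 1.06 CPM in the knockouts and 14.7 ± 2.54 CPM in the controls. Rab26 and Rab37, both linked to secretory granules, had means under 2 CPM in each group, and their intervals reached past 2-fold.

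**Figure D2:**
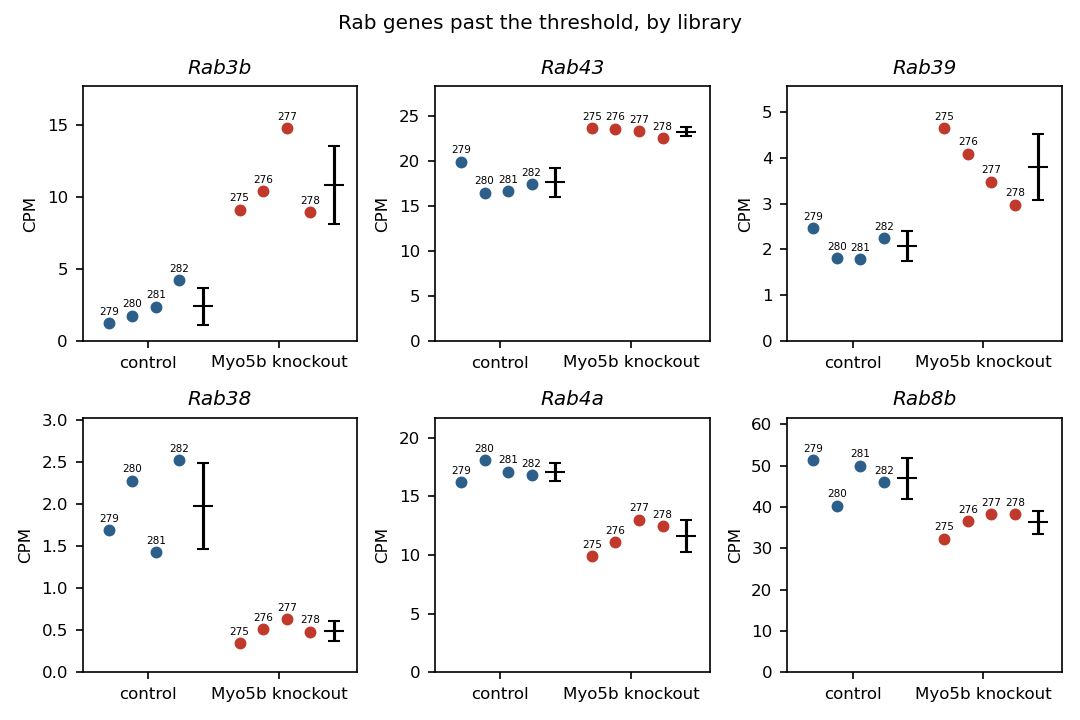
Level in CPM on a linear axis of the 6 called Rab genes in each of the 4 control (blue) and 4 knockout (red) libraries, labelled by animal, with the mean and SD as black bars. In each panel the 4 knockout points lie on 1 side of the 4 control points, by a wide gap for Rab3b and Rab38 and by a narrow one for Rab8b and Rab39.

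The 9 Rab genes of recycling and polarised delivery included 2 that fell and none that rose, and 1 of them, Rab15, was too low to test, at 0 to 1.07 CPM. Rab4a, which returns receptors from early endosomes to the cell surface by the fast route (chr8:123805985-123835287, plus strand, ENSMUSG00000019478), was read at 9.92, 11.1, 13.01 and 12.4 CPM in knockouts 275, 276, 277 and 278 and at 16.2, 18.1, 17.1 and 16.8 CPM in controls 279, 280, 281 and 282. The highest knockout was under the lowest control. Its log2 fold change was -0.55 (SE 0.14, adjusted p = 0.00916), a fall to 0.681 of the control level, and it passed in every fit that left out 1 library. Rab4b, its paralog, was not called, at 2.25 ± 0.291 CPM against 1.48 ± 0.427 CPM with a log2 fold change of 0.60 (SE 0.35, adjusted p = 0.262). Per kilobase of exon, Rab4b was 14.9% ± 2.51 of the pair in the knockouts and 7.13% ± 1.83 in the controls, with ranges of 12.3% to 17.7% and 5.61% to 9.78%. This share also moves with the fall of Rab4a and is not separate evidence.

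Rab8b, which serves delivery to the plasma membrane and to the primary cilium (chr9:66843664-66919687, minus strand, ENSMUSG00000036943), was read at 32.4, 36.6, 38.2 and 38.2 CPM in knockouts 275, 276, 277 and 278 and at 51.4, 40.4, 49.99 and 46.00 CPM in controls 279, 280, 281 and 282. The groups did not overlap, and control 280 lay nearest to the knockouts. Its log2 fold change was -0.37 (SE 0.11, adjusted p = 0.0186), with an interval of -0.59 to -0.15. It was -0.32 without knockout 275, -0.32 without control 279 and -0.34 without control 281, and missed the threshold each time, as it did when libraries were scaled by their totals alone (-0.30). Scaling by totals moved the median log2 fold change of all genes up by 0.069.

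Rab10, which carries vesicles to the basolateral membrane, was read at 93.6, 77.7, 92.9 and 101 CPM in knockouts 275, 276, 277 and 278 and at 107, 98.5, 96.5 and 106 CPM in controls 279, 280, 281 and 282. These ranges overlapped, and the log2 fold change was -0.16 with an interval of -0.35 to 0.033. Rab17, an epithelial Rab of transcytosis and apical sorting that is abundant in liver, was read at 17.9, 12.7, 15.1 and 14.9 CPM in knockouts 275, 276, 277 and 278 and at 11.8, 16.6, 15.1 and 14.02 CPM in controls 279, 280, 281 and 282. Its groups overlapped almost fully, with a log2 fold change of 0.075 and an interval of -0.25 to 0.40. Rab35, a Rab of fast recycling and of the apical membrane, lay lower in all 4 knockouts (16.96 to 23.4 CPM) than in any control (23.5 to 26.3 CPM) but missed the threshold, at -0.30 (SE 0.13, adjusted p = 0.111), and passed it without knockout 278 (-0.38). Rab14, which links the Golgi to recycling endosomes, had a log2 fold change of -0.12, and Rab13, a Rab of tight junctions, 0.41 (SE 0.19, adjusted p = 0.150).

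Lysosome-related organelles are served by the paralogs Rab38 and Rab32, which bring cargo to melanosomes and to the granules of platelets, and by Rab29, a Rab that binds the kinase Lrrk2. Rab38 fell, and the other 2 were not called. Rab38 (chr7:88430273-88491572, plus strand, ENSMUSG00000030559) was read at 0.348, 0.511, 0.632 and 0.485 CPM in knockouts 275, 276, 277 and 278 and at 1.69, 2.28, 1.42 and 2.52 CPM in controls 279, 280, 281 and 282. Every knockout was under every control, from 6 to 12 counts per knockout library and 24 to 36 per control library. Knockouts 275, 276 and 278, with 6, 8 and 8 counts, were under the minimum of 10. Rab38 was thus kept mainly through the controls, the group where it was high, which limits what its fall shows. Rab38 was 3.94-fold lower, a log2 fold change of -1.98 (SE 0.45, adjusted p = 0.00471), and it passed in each fit that left out 1 library.

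Rab32 was read at 20.1, 21.2, 19.96 and 15.3 CPM in knockouts 275, 276, 277 and 278 and at 16.9, 15.4, 14.4 and 10.1 CPM in controls 279, 280, 281 and 282. Knockout 278 lay below controls 279 and 280, the other 3 knockouts were above every control, and control 282 was the lowest. The log2 fold change was 0.43 (SE 0.16, adjusted p = 0.0790), and 0.52 (adjusted p = 0.037) without knockout 278. Per kilobase of exon, Rab38 was 3.74% ± 0.954 of the sum of Rab32 and Rab38 in the knockouts and 17.7% ± 6.71 in the controls, with ranges of 2.51% to 4.50% and 12.8% to 27.0%. This share is made from the same low Rab38 counts and is not separate evidence. Beside these values, the megakaryocyte and platelet markers summed to 69.6 to 109 CPM in the knockouts and 108 to 154 CPM in the controls, and the macrophage markers to 1647 to 1917 CPM and 923 to 1060 CPM. Their part in the 2 genes was not tested.

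Of 7 Rab genes of late endosomes, lysosomes and autophagy, Rab39 rose and 6 were not called. Rab39 was read at 4.64, 4.09, 3.48 and 2.97 CPM in knockouts 275, 276, 277 and 278 and at 2.47, 1.81, 1.78 and 2.24 CPM in controls 279, 280, 281 and 282. Every knockout was above every control, and knockout 278 lay nearest to the controls. The log2 fold change was 0.87 (SE 0.29, adjusted p = 0.0406), the adjusted p nearest to the threshold of the 6 called genes. When any 1 library other than knockout 278 was left out it missed the threshold, with log2 fold changes of 0.76 to 0.96. Rab7, the main Rab of late endosomes and of fusion with lysosomes, was read at 91.1, 105, 102 and 96.1 CPM in knockouts 275, 276, 277 and 278 and at 85.00, 99.1, 85.4 and 83.7 CPM in controls 279, 280, 281 and 282. Control 280 lay among the knockouts, and the log2 fold change was 0.16 (SE 0.085, adjusted p = 0.223) with an interval of -0.024 to 0.34. Rab24, a Rab of autophagy, Rab9, of transport from late endosomes to the Golgi, and Rab12, of lysosomal degradation of receptors, had log2 fold changes of 0.19, 0.18 and 0.066. Rab7b and Rab36 had values of -0.013 and -0.27.

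Among the 10 Rab genes of the endoplasmic reticulum, Golgi and lipid droplets 1 rose. Rab43, a Rab of the Golgi and of transport out of the endoplasmic reticulum (chr6:87788853-87812164, minus strand, ENSMUSG00000030055), was read at 23.6, 23.6, 23.3 and 22.5 CPM in knockouts 275, 276, 277 and 278 and at 19.9, 16.5, 16.6 and 17.4 CPM in controls 279, 280, 281 and 282. The knockouts lay close together, and all were above control 279, the highest control. This gave a log2 fold change of 0.40 (SE 0.12, adjusted p = 0.0232). It lay between 0.37 and 0.40 in the 6 fits that left out knockout 275, 276 or 277 or control 280, 281 or 282, in each of which it missed the threshold. A predicted gene on the same strand, Gm45140, overlaps an exon of Rab43 and had 2 to 16 counts per library, against at least 246 for Rab43.

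Rab1a, which drives traffic from the endoplasmic reticulum to the Golgi, was read at 113, 97.9, 130.0 and 101 CPM in knockouts 275, 276, 277 and 278 and at 119, 127, 113 and 111 CPM in controls 279, 280, 281 and 282. Rab1b, its paralog, was read at 58.2, 50.9, 50.8 and 58.9 CPM in knockouts 275, 276, 277 and 278 and at 53.4, 61.9, 53.3 and 52.5 CPM in controls 279, 280, 281 and 282. Neither was called, with log2 fold changes of -0.084 (95% interval -0.29 to 0.12) and -0.015 (-0.21 to 0.18), and the sign of the latter turned when libraries were scaled by their totals (0.055). That scaling moved the median log2 fold change of all genes up by 0.069. Rab2a, which acts between the endoplasmic reticulum and the Golgi, was read at 91.8, 93.8, 101 and 93.8 CPM in knockouts 275, 276, 277 and 278 and at 86.2, 87.4, 92.6 and 85.8 CPM in controls 279, 280, 281 and 282. Its groups overlapped, with a log2 fold change of 0.11 and an interval of -0.052 to 0.28. Rab18, a Rab of lipid droplets and the endoplasmic reticulum, was read at 59.4, 61.7, 50.8 and 55.6 CPM in knockouts 275, 276, 277 and 278 and at 46.8, 56.6, 46.5 and 45.02 CPM in controls 279, 280, 281 and 282. Control 280 lay inside the knockout range, and the log2 fold change was 0.22 (SE 0.10, adjusted p = 0.132), with an interval of 0.011 to 0.43. Rab6a, the main Rab of the Golgi stack, had 0.21 (SE 0.092, adjusted p = 0.119).

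Rab30, a Golgi Rab, was read at 26.6, 28.6, 29.1 and 55.8 CPM in knockouts 275, 276, 277 and 278 and at 28.7, 24.1, 29.6 and 28.96 CPM in controls 279, 280, 281 and 282. Knockout 278 was the highest of all 8 libraries by a wide gap, and the remaining 3 knockouts lay among the controls. The log2 fold change was 0.33 (SE 0.23, adjusted p = 0.357).

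None of the 7 Rab genes of early endosomes and entry was called by edgeR, DESeq2 or limma-voom, and none had an unadjusted p under 0.05 in edgeR's test. With 20.7% of all genes called by edgeR, a list of 7 is too short to read this as a result about the role. Their log2 fold changes ran from -0.20 to 0.23. Rab5a, a Rab of early endosome fusion, was read at 31.6, 29.9, 33.3 and 30.1 CPM in knockouts 275, 276, 277 and 278 and at 31.3, 31.6, 29.98 and 33.9 CPM in controls 279, 280, 281 and 282. Rab5c, its most abundant paralog per length, was read at 57.5, 55.4, 69.3 and 74.6 CPM in knockouts 275, 276, 277 and 278 and at 69.9, 71.5, 66.5 and 56.9 CPM in controls 279, 280, 281 and 282. Their log2 fold changes were -0.021 (interval -0.24 to 0.19) and -0.044 (-0.27 to 0.19), and that of Rab5b was 0.068 (-0.14 to 0.27). All 3 intervals lay within 1.5-fold. Both Rab5a and Rab5c turned to small positive values, 0.047 and 0.027, when libraries were scaled by their totals. With that scaling the median log2 fold change of all genes moved up by 0.069. Rab5c made up 64.7% ± 4.33 of the summed Rab5a, Rab5b and Rab5c level per kilobase in the knockouts and 66.0% ± 2.57 in the controls. Rab21, Rab22a and Rab31, which act in endocytosis and sorting, had log2 fold changes of 0.084, 0.13 and 0.23, and Rab20 -0.20.

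Neither the 3 Rab genes of the cilium and signalling nor the 2 large or unusual ones held a gene called by edgeR, DESeq2 or limma-voom, and Rab23 alone had an unadjusted p under 0.05 in edgeR's test. Both lists are too short to set against the 20.7% of all genes called by edgeR. Rab23, an inhibitor of Hedgehog signalling, was read at 8.59, 7.80, 8.01 and 9.22 CPM in knockouts 275, 276, 277 and 278 and at 13.9, 10.7, 14.1 and 8.48 CPM in controls 279, 280, 281 and 282. Control 282 was the lowest control and lay inside the knockout range. Over all libraries the value was -0.49 (SE 0.18, adjusted p = 0.0686), and -0.62 without control 282, where it passed. Rab44, a large Rab with calcium-binding EF hands, was read at 13.5, 11.8, 9.37 and 13.7 CPM in knockouts 275, 276, 277 and 278 and at 5.00, 5.10, 11.9 and 10.4 CPM in controls 279, 280, 281 and 282. Controls 281 and 282 lay inside the knockout range and the other 2 controls far below it. The log2 fold change was 0.57 (SE 0.27, adjusted p = 0.162), or 0.82 without control 281, where it passed. Rab34 and Rab28, both linked to the cilium, had log2 fold changes of -0.11 and 0.070, and Rab40c, which carries a SOCS box, 0.15.

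**Figure D3:**
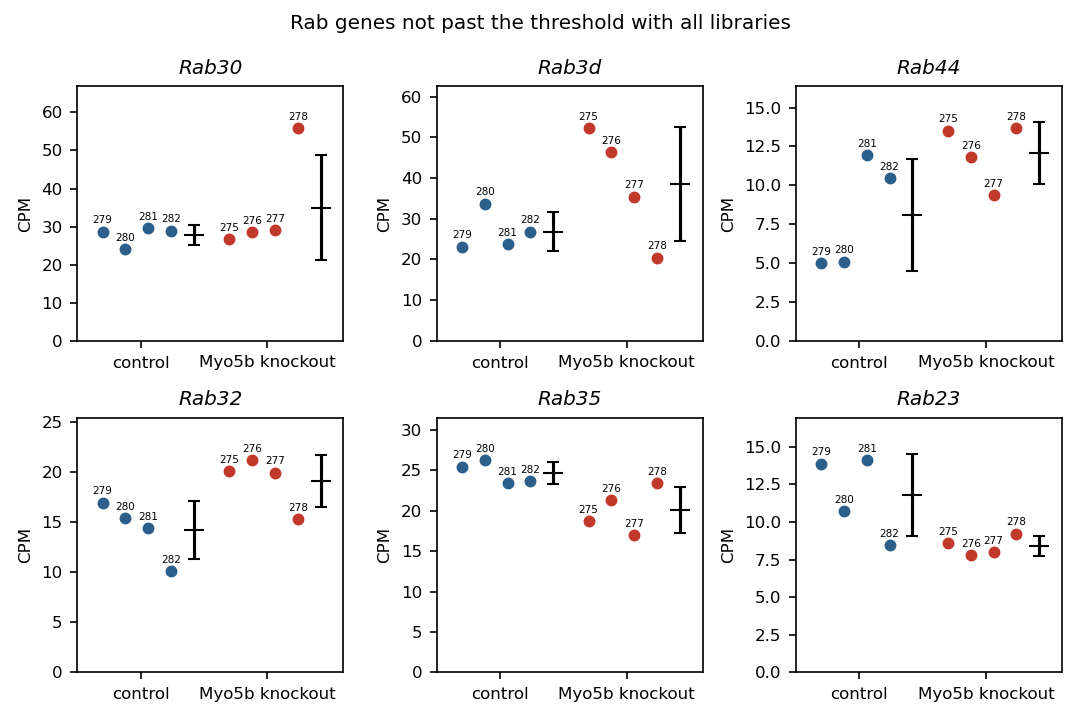
Level in CPM on a linear axis of 6 uncalled Rab genes in each control (blue) and knockout (red) library, labelled by animal, with the mean and SD as black bars. These 6 were chosen after their values were seen, and knockout 278 is the highest library for Rab30 at 55.8 CPM and the lowest for Rab3d at 20.5 CPM.

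The count of called Rab genes depended on the libraries used. Without knockout 278, 9 were called, the same 6 with Rab3d, Rab32 and Rab35, against a background of 20.9% of genes. Without knockout 275, 3 were called (Rab38, Rab3b and Rab4a). For this fit and those below, the share of all genes called is not given here, so their counts are not a result about the Rab family alone. With libraries scaled by their totals, 6 rose and 2 fell, where TMM scaling gave 3 and 3. Scaling by totals also moved the median log2 fold change of all genes up by 0.069. A fit with the mean log2 level of 11 erythroid genes as a covariate called none of the 6, giving 1.73 for Rab3b and -2.04 for Rab38, and called Rab30 alone. Rab30 was at 55.8 CPM in knockout 278 against 26.6 to 29.1 CPM in the other knockouts. Knockout 278 also had the highest erythroid sum of the knockouts, 973 CPM, and its part in that call was not tested. The erythroid covariate had a correlation of -0.94 with the genotype over the 8 libraries and inflated the variance of the genotype term 9.09 times. The erythroid share and the genotype therefore could not be told apart.

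Levels of different Rab genes were compared per kilobase of exon. The highest were Rab2a at 42.9 CPM per kb over all 8 libraries, Rab7 at 35.8, Rab1a at 29.96, Rab5c at 29.7, Rab10 at 27.5 and Rab1b at 24.2, which serve the early secretory route, endosomes and basolateral delivery. The called genes lay lower, from Rab38 at 0.784 CPM per kb and Rab39 at 0.988 to Rab8b at 8.80. Pearson's r between the log2 mean levels per kb of knockouts and controls was 0.96 across the 48 genes. These genes share libraries and are not independent replicates. The r over all genes is not given here, so the value is not a result about the Rab family alone. Neighbours such as Rab1a at 30.8 ± 1.90 and Rab5c at 30.2 ± 2.97 CPM per kb in the controls lay within their spread. The median coefficient of variation of a Rab gene was 13.6% in the controls and 13.3% in the knockouts.

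**Figure D4:**
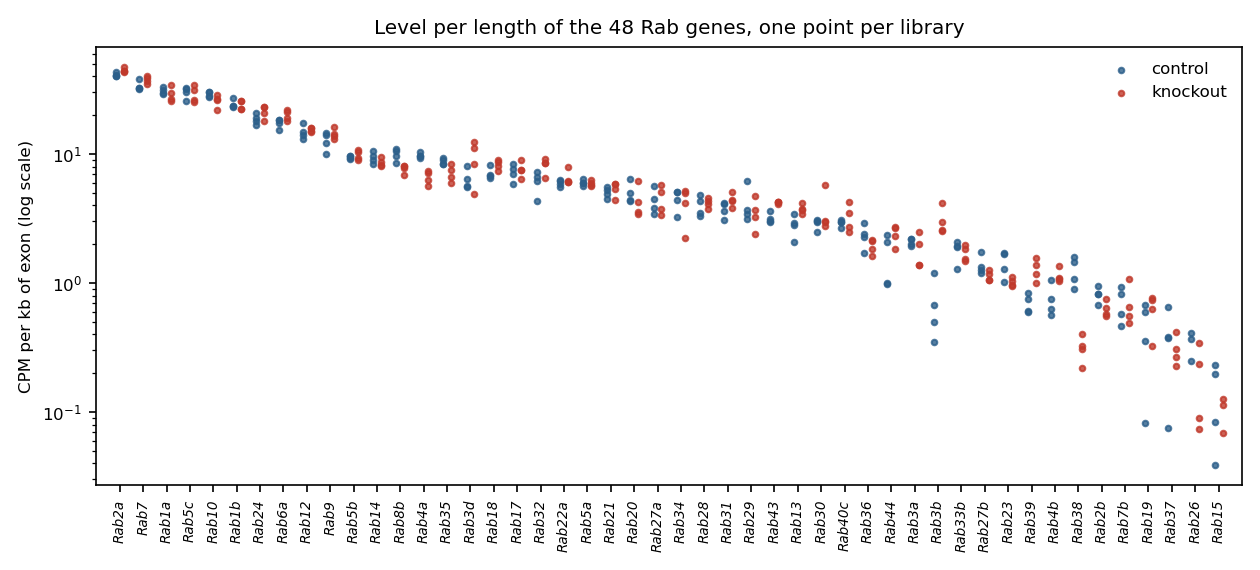
Level of the 48 Rab genes in CPM per kilobase of exon on a logarithmic axis, ordered by mean level, with 1 point per control (blue) and knockout (red) library and values of 0 not drawn. Rab3b and Rab38 are the genes where red and blue points stand widest apart, while Rab2a, at 42.9 CPM per kb, leads a row of genes whose points overlap.

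Genes that act on Rab proteins were listed by role, and 30 of the 120 tested were called, 24 higher and 6 lower (25.0%, against 20.7% of all genes). Their median log2 fold change was 0.16. The lists were drawn up with earlier results of these libraries known and are not independent evidence of a direction. By direction, 9.27% of all genes were called higher and 11.4% lower. Without knockout 276 the number higher was 14, and without control 281 it was 15. With the erythroid covariate no regulator was called, and 4 of the regulators named here turned sign, Grtp1 (-0.11), Tbc1d15 (-0.11), Tbc1d2b (-0.054) and Ehbp1l1 (0.098). That covariate inflated the variance of the genotype term 9.09 times. The share of all genes called in these fits is not given here, so the counts are not a result about the regulators alone.

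Of 40 GEFs, 5 rose and 5 fell (25.0% called, against 20.7% of all genes). Ric1, a subunit of the exchange factor for Rab6, was at 146 ± 13.7 CPM against 90.1 ± 4.89 CPM, with a log2 fold change of 0.70 (SE 0.086, adjusted p = 2.35e-05). Rab3il1, an exchange factor that acts on Rab8 and Rab3 proteins, fell from 60.1 ± 10.5 CPM to 30.9 ± 3.02 CPM, with -0.96 (SE 0.12, adjusted p = 3.35e-05). Dennd4a, of the DENN family, fell with -0.50 (SE 0.091, adjusted p = 7.70e-04), and Dennd1b, which acts on Rab35, rose with 0.41 (SE 0.084, adjusted p = 0.00203). For each of the 4, the knockout and control libraries did not overlap.

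Of 35 GAPs, most of which carry a TBC domain, 8 rose and none fell (22.9% called, against 20.7% of all genes, of which 9.27% were higher and 11.4% lower). Tbc1d8 was at 74.8 ± 12.7 CPM against 31.2 ± 5.60 CPM, with a log2 fold change of 1.26 (SE 0.14, adjusted p = 1.48e-05), and Grtp1 at 24.3 ± 8.01 CPM against 11.2 ± 0.510 CPM, with 1.12 (SE 0.19, adjusted p = 6.30e-04). Tbc1d15, a GAP for Rab7, had 0.57 (SE 0.12, adjusted p = 0.00259), and Tbc1d2b 0.40 (SE 0.099, adjusted p = 0.00813). DESeq2 and limma-voom called the same 8 and no fall, and at an unadjusted p under 0.05 edgeR gave 13 higher and 1 lower.

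Of 35 effectors tested, 9 rose and 1 fell (28.6% called, against 20.7% of all genes, of which 9.27% were higher and 11.4% lower). Acap2, an effector of Rab35, had a log2 fold change of 0.62 (SE 0.096, adjusted p = 1.97e-04), Golga5, a Golgi tether, 0.55 (SE 0.11, adjusted p = 0.00146), and Micall1, which binds Rab proteins on recycling tubules, 0.57 (SE 0.11, adjusted p = 0.00188). Ehbp1l1, which binds Rab8 in apical transport, fell with -0.56 (SE 0.12, adjusted p = 0.00308). Of the 7 genes for GDI, the escort proteins and prenylation, 1 rose: Rabggtb, the catalytic subunit of the transferase that attaches the lipid anchor, with 0.37 (SE 0.11, adjusted p = 0.0205). Of 3 kinases and phosphatases of Rab proteins, 1 rose, Lrrk1 with 0.29 (SE 0.10, adjusted p = 0.0497).

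**Figure D5:**
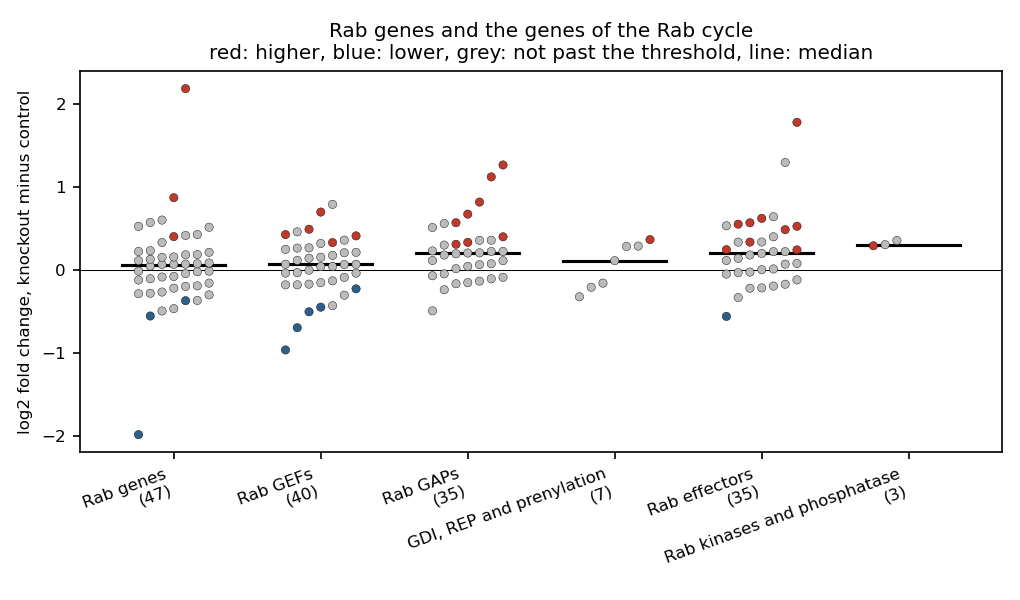
Log2 fold change of knockout over control for the 47 tested Rab genes and the tested genes of each Rab regulator list, 1 point per gene, red if called higher and blue if called lower, with the median as a line. The 8 called GAPs all lie above 0, while the called GEFs lie on both sides, 5 above and 5 below.

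The 7 genes under the count minimum were Rab33a, Rab39b, Rab3c, Rab40b, Rab42, Rab6b and Rab9b, of which the highest value in any library was 1.47 CPM, for Rab40b in control 280. Exons of 13 of the 48 members, Rab3b, Rab7, Rab10, Rab5a and Rab6a among them, are overlapped by an antisense gene. The sources used here do not say whether counting used strand, and reads from such a pair cannot be told apart. Exons of Rab18, Rab26, Rab27a, Rab43 and Rab4b are overlapped by a gene on the same strand, which strand would not resolve. In all, 5 members, Rab15, Rab19, Rab26, Rab37 and Rab38, had under 10 counts in at least 1 library.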

How the data were processed

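Whole-liver RNA of 4 Myo5b knockout and 4 control pups was sequenced. Per the labels' protocols the authors used R 4.4.1, BiocManager 1.30.26 and, for alignment, Rsubread 2.20.0, and the submitters' processing notes name featureCounts. The deposited values are whole-number counts per Ensembl gene. The build is written GRMm38 there and was read as GRCm38. How strand and multi-mapping reads were handled, and which annotation was used, is not given in the sources used here. Paralogs and overlapping genes are therefore uncertain. The authors used DESeq2 1.46.0, per the series' design text, and none of their test results was used.

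Of 48440 genes, 48058 matched a GENCODE M21 symbol. Totals ran from 14228268 to 18398039 counts. The counts were tested with edgeR 4.0.16 (R 4.3.3): filterByExpr, TMM scaling, and the robust quasi-likelihood F-test of genotype over 18274 genes with Benjamini-Hochberg adjustment at 0.05, stated as adjusted p throughout. The SE is the log2 fold change divided by the square root of F, and 95% intervals use the fit's degrees of freedom and are not adjusted. Levels per length divide CPM by the exon union of GENCODE M21. The script was tested on simulated data. Alternatives were RLE scaling, library size alone, no filter, non-robust dispersion, a minimum fold of 1.5, DESeq2 1.42.0, limma-voom with quality weights (limma 3.58.1), an erythroid covariate and leaving out each library. Figures used matplotlib 3.10.9.

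The Rab genes, role lists, regulator lists and marker lists were chosen with earlier results of these data known. Values in every library are given for Rab genes past the threshold, the 6 highest per length, and Rab5a, Rab7, Rab10, Rab17, Rab18, Rab27a and Rab1a. Rab3d, Rab23, Rab30, Rab32, Rab35 and Rab44 were added after their values were seen. Regulators named are at most 4 called genes per list with the smallest p. No replicate number is shared between the groups. Each library is from its own animal, per the labels. The p-values set the difference between the groups against the spread between these animals, which edgeR moderates over all genes tested.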

Additional observations from a re-analysis of the deposited data

Results flagged for a closer look

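In each group of 4 libraries, the highest or lowest value of each Rab gene was compared with the rest. It was set apart where its gap to the nearest other library passed Dixon's 95% critical value as a share of the group's range, which chance gives in about 1 in 20 groups. Of 96 groups, 7 had such a library, which is not far from that share. The groups share libraries and are not independent. Control 280 stood apart in 4 of the 7. It was the highest control for Rab18, at 56.6 CPM against 45.0 to 46.8 CPM in the other controls, for Rab1b, at 61.9 CPM against 52.5 to 53.4 CPM, and for Rab7, at 99.1 CPM against 83.7 to 85.4 CPM. It was the lowest control for Rab30, at 24.1 CPM against 28.7 to 29.6 CPM. Knockout 278 was the highest knockout for Rab30, at 55.8 CPM against 26.6 to 29.1 CPM. Knockout 275 was the highest for Rab22a, at 56.7 CPM against 43.4 to 44.2 CPM. Knockout 276 was the highest for Rab4b, at 2.68 CPM against 2.05 to 2.15 CPM.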

How the results depend on the processing

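The counts of called Rab genes (3 higher, 3 lower) and of regulators (24 higher, 6 lower) were within 1.5 times of these with RLE scaling, no filter, non-robust dispersion, DESeq2 and limma-voom. Scaling by library size alone gave 6 higher Rab genes. A minimum fold of 1.5 gave 1 higher and 1 lower Rab gene and 2 higher and 1 lower regulators. With the erythroid covariate these were 1 and 0 Rab genes, and 0 and 0 regulators. Over the fits that left out 1 library, Rab genes ran from 1 to 5 higher and 2 to 4 lower, and regulators from 14 to 25 higher and 4 to 5 lower. Apart from the fit without knockout 278, the share of all genes called in each alternative is not given here. Leaving out knockout 278 and control 282 together was chosen after seeing the data and called 7 Rab genes, 5 of them among the 6. Rab3b and Rab38 passed in 16 of 17 alternatives, Rab4a in 15, Rab8b in 11, Rab43 in 8 and Rab39 in 7. The cause of each change was not tested. Low counts limit Rab38, Rab26, Rab37 and Rab19. No paired analysis was possible because the groups share no replicate number. Some log2 fold changes turned sign, all of genes not called except Grtp1, Tbc1d15, Tbc1d2b and Ehbp1l1. With the erythroid covariate they became Rab10 0.095, Rab12 -0.22, Rab17 -0.38, Rab19 -0.071, Rab1b 0.030, Rab21 -0.33, Rab22a -0.11, Rab26 1.598, Rab31 -0.11, Rab32 -0.28, Rab34 0.51, Rab35 0.25, Rab36 0.60, Rab37 1.61, Rab3d -1.28, Rab5b -0.0052, Rab5c 0.15, Rab7b 0.36, Grtp1 -0.11, Tbc1d15 -0.11, Ehbp1l1 0.098 and Tbc1d2b -0.054. Library size alone gave Rab1b 0.055, Rab5a 0.047, Rab5c 0.027 and Rab7b 0.065, and limma-voom gave Rab27a -0.011. With library size alone the median log2 fold change of all genes moved up by 0.069. Over the fits without 1 library and the fit without knockout 278 and control 282, log2 fold changes ran from lowest to highest as Rab17 -0.016 to 0.15, Rab1b -0.076 to 0.043, Rab27a -0.15 to 0.20, Rab28 -0.060 to 0.17, Rab29 -0.39 to 0.076, Rab33b -0.21 to 0.0084, Rab34 -0.23 to 0.093, Rab37 -0.62 to 0.13, Rab40c -0.0094 to 0.26, Rab5a -0.060 to 0.029, Rab5c -0.19 to 0.013 and Rab7b -0.31 to 0.15.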
